A study of Mus musculus with 4 samples.

Results

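The genes described here are 10 mouse germline genes, Dazl, Ddx4, Mael, Sycp1, Sycp3, Tex101, Tex19.1, Asz1, Stk31 and Hormad1, which are known in somatic cells to be kept silent by methylation of their promoters. They were chosen by name, and their probes were found through the RefSeq accession that the scanner files give for each spot. All 10 were on the array, with 11 probes in all, and all 10 were among the 13041 named genes that were compared. Promoter methylation itself was not measured in these arrays, so the label of the group rests on prior knowledge and was not tested.

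RNA of 4 samples was measured, all from female mouse embryonic stem cells (ESCs), which are pluripotent cells grown from early embryos. In 2 samples the cells were parthenogenetic haploid ESCs, with a single chromosome set, and in 2 they were parthenogenetic diploid ESCs. Parthenogenetic means that the embryo arose from an egg without fertilisation, so both groups have a maternal genome alone. The samples of each group were labelled as a line 1 and a line 2, and neither a strain, nor culture conditions, nor the share of cells still haploid in the haploid cultures is given in the sources used here. Haploid cultures of such cells are known to drift towards diploidy, and the series was built around the passage from G2 into mitosis in such cells. All levels below are log2 of the spot signal relative to the 75th percentile of signals on the same array, so that 0 is the 75th percentile, and a difference is the haploid mean minus the diploid mean.

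Germ cells of both sexes switch on a shared set of genes as they prepare for meiosis, the division that pairs and recombines homologous chromosomes. Many of these genes have CpG-rich promoters that escape methylation in the germ line and become methylated around implantation of the embryo. Repressor complexes that contain E2F6 and the MGA-MAX pair bind many such promoters in ESCs, and DNA methylation later stabilises the silence. ESCs, which resemble the embryo before implantation, are known to transcribe part of this set.

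The promoter sequences of the group are shown first, because CpG content is what the silencing acts on. A table of RefSeq promoters (build GRCm38.p6) held windows of 300 bases, from 250 bases before to 50 bases after the transcription start, for all 10 genes. These windows held 15 (Sycp3) to 38 (Ddx4) CpG dinucleotides, and all 10 genes lay above the median of 7 over 32851 mouse promoter windows. Printed below are the 250 bases before the start of 4 of them, 5′ to 3′ on the gene's strand, with every CpG in capitals: Tex101 (chr7:24672051-24672300, minus strand) and Dazl (chr17:50293621-50293870, minus strand), which lay at the opposite ends of the expression differences below, Sycp1 (chr3:102936101-102936350, minus strand), and Mael (chr1:166238745-166238994, minus strand), whose groups differed least.
Tex101: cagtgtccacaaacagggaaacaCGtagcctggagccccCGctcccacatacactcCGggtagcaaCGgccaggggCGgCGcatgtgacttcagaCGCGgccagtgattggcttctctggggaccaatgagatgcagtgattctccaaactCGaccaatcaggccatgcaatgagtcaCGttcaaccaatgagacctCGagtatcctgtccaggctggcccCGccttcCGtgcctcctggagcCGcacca
Dazl: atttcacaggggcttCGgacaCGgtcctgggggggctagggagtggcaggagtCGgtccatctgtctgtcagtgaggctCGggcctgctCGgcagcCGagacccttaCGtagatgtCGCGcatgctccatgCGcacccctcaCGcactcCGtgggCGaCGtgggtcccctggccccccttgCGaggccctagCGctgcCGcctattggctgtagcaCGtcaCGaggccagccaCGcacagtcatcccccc
Sycp1: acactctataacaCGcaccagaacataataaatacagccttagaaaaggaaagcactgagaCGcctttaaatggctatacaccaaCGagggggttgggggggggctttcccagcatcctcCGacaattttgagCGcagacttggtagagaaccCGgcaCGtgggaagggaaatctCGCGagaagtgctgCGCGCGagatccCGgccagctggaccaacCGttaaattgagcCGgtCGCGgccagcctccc
Mael: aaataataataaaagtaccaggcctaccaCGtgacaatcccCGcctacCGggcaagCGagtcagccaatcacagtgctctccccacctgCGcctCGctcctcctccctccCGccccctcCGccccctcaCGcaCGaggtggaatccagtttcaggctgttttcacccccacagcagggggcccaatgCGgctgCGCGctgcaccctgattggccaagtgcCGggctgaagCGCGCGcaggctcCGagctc

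The Tex101 stretch held 14 CpGs, Dazl 20, Sycp1 17 and Mael 18. The high and the low end of the expression differences therefore both carried CpG-rich sequence, and Tex101 was the poorer of that pair. Over the full windows Tex101 had 19 CpGs, more than 71.9% of all windows, and Dazl had 28, more than 85.8%.

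**Figure D1:**
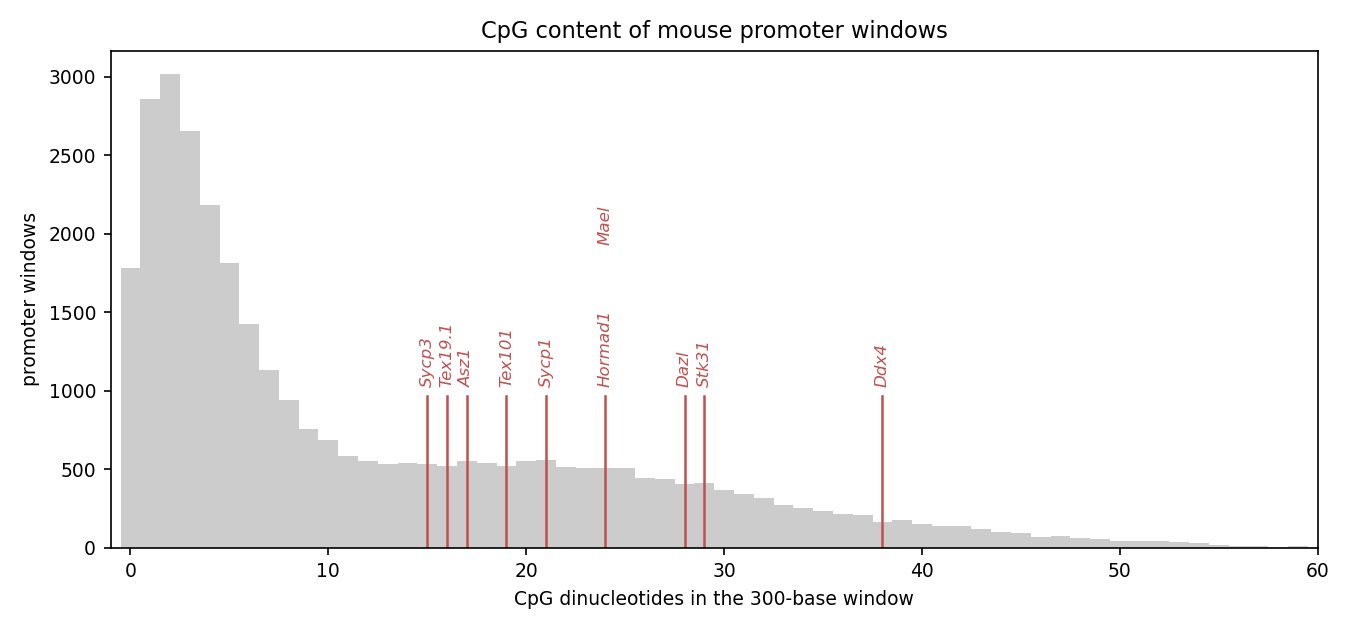
CpG dinucleotides per 300-base promoter window (horizontal axis) for 32851 RefSeq mouse promoter windows (grey bars, number of windows) with the 10 genes marked by red lines and names, the richer window being used where a gene has more than 1. The genes run from 15 for Sycp3 to 38 for Ddx4, all right of the peak of CpG-poor promoters.

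A pair of short motifs was searched on both strands of the windows: TCCCGC, the core of E2F6 sites, and CACGTG, the E-box that MGA and MAX bind. The letters do not overlap, and a match describes the sequence without showing binding. TCCCGC was found in 6 of the 10 genes (Ddx4, Hormad1, Mael, Sycp1, Sycp3 and Tex19.1), while 20.0% of all windows held it. CACGTG was found in 6 of the 10 (Ddx4, Hormad1, Mael, Stk31, Sycp1 and Sycp3), while 7.15% of all windows held it. Both motifs contain a CpG, and most windows are poorer in CpG than these. Windows of like CpG content were not compared, so the shares do not show that the motifs are particular to these genes. In Sycp3 the E-box lay at bases -64 and -43 from the start site, in Ddx4 at -29, in Sycp1 at -94 and in Mael at -223. In Hormad1 it lay at -57 and -20, counted from the earlier of its annotated starts. In Stk31 it lay at -55 or -120, depending on which annotated start is counted. Neither motif was found in the windows of Asz1, Dazl or Tex101.

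No member passed the test across all features, which was limma at a Benjamini-Hochberg adjusted p of 0.05. This test called 20 of 17963 features (0.111%), 15 of them higher (0.0835%) and 5 lower (0.0278%) in haploid cells, a split of 78 and 13 with median centring and of 6 and 1 with quantile normalization. At an unadjusted p under 0.05, 2 of the 10 members stood out, Tex101 and Dazl, while 11.7% of all features did. Of the members 1, Tex101, differed by a log2 of 1 or more, as did 3.09% of all features. In 7 of the 10 the haploid and diploid values did not overlap, against 47% of all features. Haploid values were the higher in 4 of these (Tex101, Stk31, Hormad1 and Tex19.1), against 26% of all features, and diploid values in 3 (Dazl, Ddx4 and Sycp1), against 20.9%. The members thus did not move as a block: 4 differences lay above 0 and 6 below, with a median of -0.10, beside 0.02 over all features. Without haploid replicate 1 the median was 0.12, and without haploid replicate 2 it was -0.23.

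**Figure D2:**
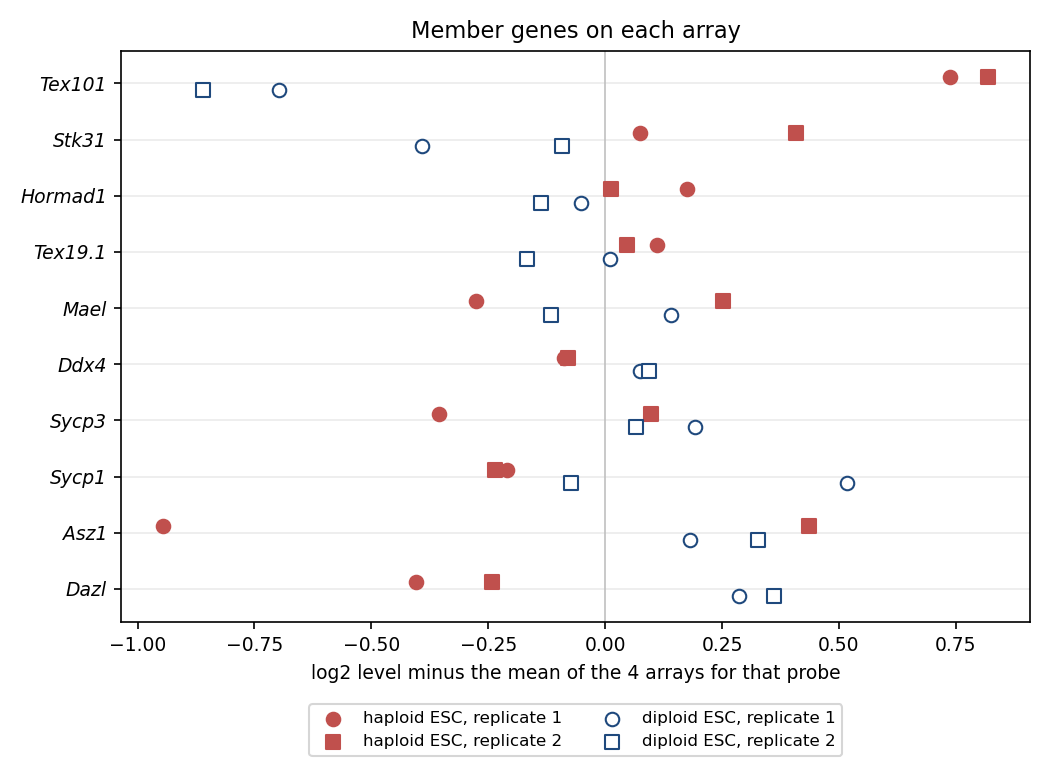
Each point is 1 array, placed by its log2 level minus the mean of the 4 arrays for that gene's probe. Filled red symbols are haploid and open blue symbols diploid ESCs, with circles for replicate 1 and squares for replicate 2. Tex101 shows the widest separation, and haploid replicate 1 stands apart from the other 3 arrays in Asz1 and Sycp3.

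Tex101 encodes a glycoprotein anchored on the surface of germ cells, known for its part in sperm function. It had the largest difference among the members. Its log2 levels were -1.10 and -1.02 in haploid replicates 1 and 2, and -2.53 and -2.70 in diploid replicates 1 and 2. The groups were far apart, and the arrays within a group differed by 0.08 and 0.16. The spot signals before scaling were 245 and 273 intensity units on the haploid arrays and 106 and 140 on the diploid arrays, all well above background. The haploid mean of Tex101 was 2.94-fold that of the diploid samples, a log2 difference of 1.56 ± 0.17 (SE, n = 2 per group), with limma adjusted p = 0.0529, just short of the threshold. Of all features 0.629% differed by as much or more in that direction. In the authors' deposited value table the same probe read 159 and 163 units in the haploid samples and 63.2 and 54.1 in the diploid samples.

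Whether Tex101 was called depended on the processing, while its direction did not. It passed in 5 of 15 other settings: with median centring (limma adjusted p = 0.0251), with only probes well above background on all 4 arrays (0.0161), with a trended and robust prior variance (0.000238), without haploid replicate 1 (0.0220) and without haploid replicate 2 (0.0238). In the last pair of settings the spread came from the diploid arrays, and the lone haploid array was assumed to vary like them. Without diploid replicate 1 or 2 the limma adjusted p was 0.270 and 0.280, although the difference was 1.64 and 1.47. The difference was smallest with normexp background correction (offset 50, then quantile normalization), at 0.92, and ran up to 1.64 over the 15 settings. The gene had a single probe on the array, so no other probe could be set beside it.

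Markers of fibroblasts, which often serve as a feeder layer in ESC culture, lay on both sides of 0. Of 12 measured fibroblast markers 9 lay above 0, beside 53.2% of all features, with a median difference of 0.60 that was 0.34 with normexp and ran from 0.43 to 0.76 with 1 array left out. None passed the test, and 5 had an unadjusted limma p under 0.05, beside 11.7% of all features. Their summed signal, in multiples of the array's 75th percentile, was 10.7 to 13.7 on the haploid and 6.08 to 8.26 on the diploid arrays. S100a4, a calcium-binding protein of mesenchymal cells, differed by 2.27 ± 0.51, the matrix glycoprotein gene Thbs1 by 1.39 ± 0.26, the elastic-fibre gene Fbln5 by 1.03 ± 0.22, and the collagen I genes Col1a1 and Col1a2 by 0.99 ± 0.31 and 0.58 ± 0.27 (SE, n = 2 per group, limma adjusted p from 0.140 to 0.468). The diploid arrays of S100a4 lay 1.67 apart, and with 1 array left out its difference ran from 1.43 to 3.11. That of Col1a2 ran from 0.23 to 0.93. The 3 markers below 0 were the matrix genes Col3a1 (-0.39), Dcn (-0.38) and Lum (-0.29), which are named after their values were seen. The fibroblast genes Pdgfrb and Prrx1 did not reach the filter, which removed dim probes. In bulk RNA, more cells of a type and more RNA per cell cannot be told apart, and the part of other cells in the Tex101 result was not tested.

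Dazl, an RNA-binding protein that controls translation in germ cells and licenses them for gamete formation, showed the opposite pattern. Its levels were -1.41 and -1.25 on the haploid arrays and -0.72 and -0.65 on the diploid arrays. Both haploid values were below both diploid values, by several times the gap between arrays of a group (0.16 and 0.07). The haploid mean was lower by 1.57-fold, a log2 difference of -0.65 ± 0.17 (SE, n = 2 per group, limma adjusted p = 0.236). The difference stayed negative in all 15 other settings, from -0.73 to -0.40, and none of them called it (limma adjusted p from 0.0882 to 0.873).

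Ddx4, the VASA helicase that marks germ cells across animals, differed by far less but very evenly. Its levels were -0.53 and -0.52 in haploid and -0.36 and -0.35 in diploid samples. The arrays of each group lay within 0.01 and 0.02 of each other, so the groups were separate even though the difference was only -0.17 ± 0.16 (SE, n = 2 per group, limma adjusted p = 0.700). The SE is wider than those gaps because limma draws each gene's variance towards that of all genes.

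Mael, Asz1, Stk31 and Tex19.1 act in the defence of the germ line against transposable elements or are tied to it, Mael and Asz1 through the piRNA pathway, in which small RNAs guide PIWI proteins to transposon transcripts. Stk31, a Tudor-domain protein with a kinase-like domain, had levels of -0.70 and -0.37 in haploid and -1.17 and -0.87 in diploid samples. Both haploid values were the higher, and the difference was 0.48 ± 0.21 (SE, n = 2 per group, limma adjusted p = 0.438). Taken by replicate number, which is not known to pair the samples, the differences were 0.47 for number 1 and 0.50 for number 2. With 1 array left out the difference ran from 0.32 to 0.65.

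Tex19.1, a mammalian gene known both from germ cells and from pluripotent cells, gave bright signals on every array, of 32817, 32973, 35870 and 46642 units in haploid replicates 1 and 2 and diploid replicates 1 and 2. After scaling its levels were 5.96 and 5.90 in haploid and 5.86 and 5.68 in diploid samples. The lower haploid value was just above the higher diploid one, and the difference of 0.16 ± 0.17 (SE, n = 2 per group, limma adjusted p = 0.732) changed sign with quantile normalization (-0.028), the value table (-0.023) and normexp (-0.037).

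Mael, an HMG-box protein of the piRNA pathway, had levels of 1.40 and 1.93 in haploid and 1.82 and 1.56 in diploid samples. The haploid arrays enclosed both diploid values, and the difference was -0.02 ± 0.23 (SE, n = 2 per group, limma adjusted p = 0.973). The gap between the haploid arrays was 0.53 with the main processing. Over the 15 other settings the difference between the groups ran from -0.29 to 0.24.

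Asz1, an ankyrin-repeat protein needed to assemble the germ granules in which piRNAs are processed, was near the limit of detection. Its signals were 13.8 and 37.8 units on the haploid and 35.3 and 57.4 on the diploid arrays, and it was well above background on 1 of 2 haploid and 2 of 2 diploid arrays. The levels were -5.26, -3.87, -4.13 and -3.98 in the same order, so that haploid replicate 1 alone lay low. Since that array was not well above background, its level is uncertain, and with values raised to a common floor the difference was -0.18. The measured difference of -0.51 ± 0.43 (SE, n = 2 per group, limma adjusted p = 0.647) turned to 0.18 without haploid replicate 1, was -1.20 without haploid replicate 2, and was 0.026 with normexp and 0.034 with normexp without the spots of high local background.

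The other 3 members encode proteins of the meiotic chromosome axis or of the synaptonemal complex built on it. Sycp1 encodes the filament that bridges paired homologues in the synaptonemal complex. Its levels were -0.03 and -0.06 in haploid and 0.69 and 0.11 in diploid samples. Both diploid values were the higher, but diploid replicate 1 lay 0.59 above diploid replicate 2, a gap wider than the difference between groups (-0.44 ± 0.23 SE, n = 2 per group, limma adjusted p = 0.508). Without diploid replicate 1 the difference was -0.15, and without diploid replicate 2 it was -0.74.

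Sycp3, of the lateral elements along each homologue, had levels of -0.44 and 0.02 in haploid and 0.11 and -0.02 in diploid samples. Haploid replicate 2 fell among the diploid values, while haploid replicate 1 lay below them. The difference was -0.26 ± 0.21 (SE, n = 2 per group, limma adjusted p = 0.639), or -0.03 without haploid replicate 1.

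Hormad1, a HORMA-domain protein that marks unpaired chromosome axes, was the only member with a second probe. Its brighter probe gave levels of 1.22 and 1.05 in haploid and 0.99 and 0.91 in diploid samples, a difference of 0.19 ± 0.17 (SE, n = 2 per group, limma adjusted p = 0.678). The other probe gave -0.20 and 0.11 in haploid and -0.01 and -0.13 in diploid samples, a difference of 0.03. On the brighter probe the groups were separate, and on the other they overlapped.

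**Figure D3:**
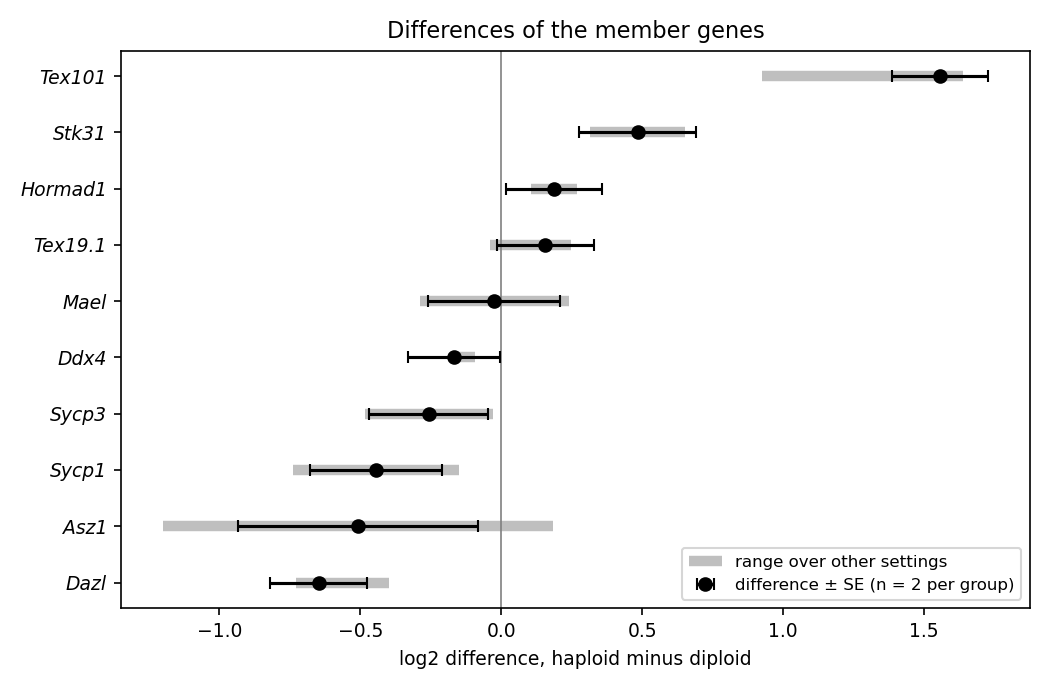
Log2 difference, haploid minus diploid, for each member (points, bars ± SE, n = 2 per group), with the range over the 15 other processing settings (14 for Asz1) as a grey band. The bands of Mael, Asz1 and Tex19.1 cross 0, while every other member keeps its sign in every setting, with Tex101 farthest to the right.

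In 5 of the 10 (Mael, Sycp1, Sycp3, Asz1 and Tex19.1) the gap between the arrays of a group was larger than the difference between groups. Haploid replicate 1 gave the lowest of the 4 values in 5 members, Dazl, Ddx4, Mael, Sycp3 and Asz1. Neither count was made over all features, so neither can be called particular to the members. The median of the 10 levels was -0.48 and -0.21 on the haploid and -0.13 and -0.18 on the diploid arrays.

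Genes related to these 10 were followed through lists chosen by name. None of the lists had a gene that passed the test (limma adjusted p). At an unadjusted p under 0.05 the counts were 2 of 20 other methylation-dependent genes, 5 of 10 piRNA pathway genes, 2 of 20 meiotic chromosome genes, 4 of 12 germ cell specification genes, 0 of 17 repressors and 0 of 7 genes of the methylation machinery, beside 11.7% of all features. Of 24 further genes, germline genes known or thought to depend on promoter methylation together with Zfp42 and Dnmt3l, 20 passed the filter. Of these, 15 lay above 0, and their median was 0.30, beside 53.2% above 0 and a median of 0.02 over all features. Fkbp6, a chaperone of the piRNA pathway, differed by 0.65 ± 0.20, Taf7l, a TFIID subunit of germ cells, by 0.44 ± 0.18 and Dnmt3l, a cofactor of de novo methylation, by 0.42 ± 0.18 (SE, n = 2 per group, limma adjusted p from 0.297 to 0.435). The brightest probes of the list were those of Rpl10l and Tuba3a, at 0.26 ± 0.18 and 0.39 ± 0.23. Both genes have near-identical relatives that a probe may also detect, and the other probe of Rpl10l differed by -0.08. The median of this list was above 0 in every setting, from 0.11 to 0.42, while that of the 10 members was on both sides of 0.

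The piRNA pathway genes, of which 7 of 18 are also in the list just described, had 10 measured members, 7 of them above 0. Their median was 0.30, or 0.13 without haploid replicate 2 and 0.51 without haploid replicate 1. All the shared genes but Tdrd1 and Tdrkh were measured, so the medians of these lists rest in part on the same genes. Members of this pathway lay on both sides of 0. Tdrd5, a Tudor-domain protein of germ granules, had the largest difference, -0.83 ± 0.20, with its other probe at -0.85. Tdrd7, of the same protein class, differed by 0.56 ± 0.17, Gtsf1, a PIWI cofactor, by 0.49 ± 0.26 and Gpat2, an acyltransferase tied to piRNA biogenesis, by 0.37 ± 0.18 (SE, n = 2 per group, limma adjusted p from 0.202 to 0.507). Henmt1, Piwil1, Tdrd1, Tdrd6, Tdrd9 and Tdrkh did not reach the filter.

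The meiotic chromosome genes, the closest relatives of Sycp1, Sycp3 and Hormad1, lay evenly around 0. Of 20 measured, 10 were above 0, and the median was -0.01. Smc1b, a meiotic cohesin subunit, differed by 0.81 ± 0.31, or 0.43 to 1.19 with 1 array left out. Among proteins of the central element of the synaptonemal complex, Tex12 differed by 0.45 ± 0.20, 4930447C04Rik (Six6os1) by -0.46 ± 0.17 and Syce2 by 0.27 ± 0.20, while Trip13, the ATPase that removes HORMA-domain proteins from the axis, differed by -0.10 ± 0.18 (SE, n = 2 per group, limma adjusted p from 0.384 to 0.848). Meiob, Msh4, Spo11, Sycp2 and Terb1 did not reach the filter.

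Genes that specify germ cells had 12 measured members, 4 above 0, with a median of -0.04. Nanos2, an RNA-binding protein of male germ cells, was read as well above background on neither haploid array. It was at least 1.27-fold lower there, with each haploid array counted at no less than its lowest signal well above background. The measured difference, -2.59 ± 0.36 (limma adjusted p = 0.0830), rests on haploid signals of 4.46 and 3.72 units. As those were not well above background, its size and p are uncertain, and over the other settings it ran from -3.14 to -0.35. The receptor gene Kit differed by -0.70 ± 0.19, Nanos3 by 0.53 ± 0.19, Ifitm3, an interferon-induced membrane protein of early germ cells, by 0.42 ± 0.24 and the transcription factor gene Tfap2c by -0.14 ± 0.22 (SE, n = 2 per group, limma adjusted p from 0.253 to 0.811). Figla and Nobox, oocyte transcription factors, were not well above background on any array.

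**Figure D4:**
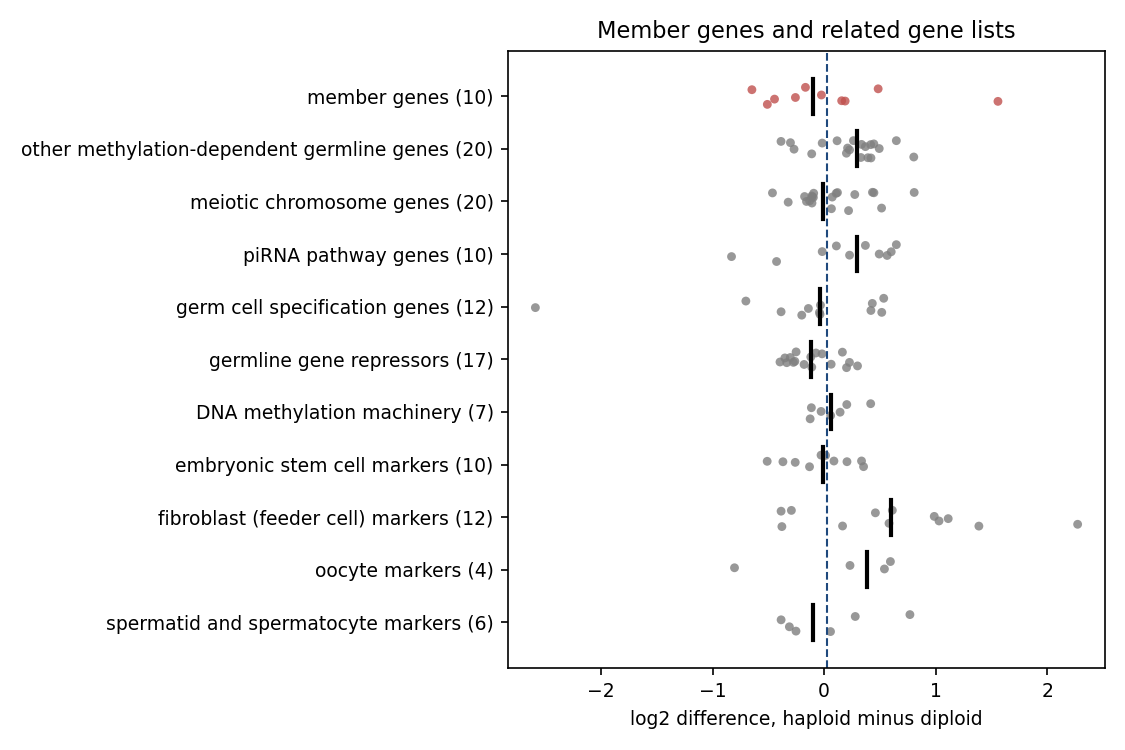
Log2 differences, haploid minus diploid, of the member genes (red) and of the genes of each list (grey), with the number measured in brackets, a black bar at each median and a dashed line at the median of all features, 0.02. The median is 0.30 for the other methylation-dependent germline genes and -0.10 for the members, and most repressor genes lie left of 0.

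Repressors of germline genes were all detected, 17 of 17, and 12 of them lay below 0, beside 8402 of 17963 features. Of the 5 above 0, some had other probes below 0, so the count depends on the probe used. The list median was -0.12 and kept its sign in all 15 other settings (-0.22 to -0.05). Pcgf6, the Polycomb subunit of the complex that E2F6 and MGA recruit, differed by -0.40 ± 0.17, Mga by -0.35 ± 0.18 and Ring1, a Polycomb ubiquitin ligase, by -0.34 ± 0.19. The histone methyltransferase gene Ehmt2 differed by 0.30 ± 0.19 and the deacetylase gene Hdac1 by 0.23 ± 0.19, with its other probes at -0.17 and -0.09 (SE, n = 2 per group, limma adjusted p from 0.436 to 0.651). For the DNA methylation machinery 7 of 8 genes were measured, 4 above 0, with a median of 0.06. The de novo methyltransferase gene Dnmt3b differed by 0.20 ± 0.24, with its other probes at -0.19 and -0.05, and Uhrf1, which guides maintenance methylation, by 0.14 ± 0.18 (SE, n = 2 per group, limma adjusted p = 0.757 and 0.762).

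Markers of cell types were also compared between the groups. All 10 ESC markers passed the filter, with 5 above 0 and a median difference of -0.01. The filter asks only for signal above background, so passing it does not identify a cell type. The median level of the ESC markers was 3.08 and 2.81 on the haploid and 2.83 and 2.94 on the diploid arrays. That of the fibroblast markers was -0.76 and -1.32 on the haploid and -1.55 and -2.14 on the diploid arrays. The Nanog probe among the ESC markers was dim, with signals of 61.7 and 71.7 units on the haploid and 93.7 and 151 on the diploid arrays. No gene of the ESC, oocyte or sperm cell markers passed the test. An unadjusted limma p under 0.05 was found for 1 of 10 ESC, 3 of 4 oocyte and 1 of 6 sperm cell markers, beside 11.7% of all features. Tdgf1, a Nodal co-receptor, differed by -0.51 ± 0.19, Nanog by -0.37 ± 0.17, Zfp42 by 0.33 ± 0.16, Dppa5a by 0.35 ± 0.21 and Esrrb by 0.20 ± 0.17 (SE, n = 2 per group, limma adjusted p from 0.371 to 0.649). Of 8 oocyte markers 4 were measured, and Bmp15, Oosp1, Zp1 and Zp2 did not reach the filter. The summed signal of the measured oocyte markers was 2.88 to 3.49 on the haploid and 2.28 to 2.69 on the diploid arrays, in multiples of the 75th percentile. Nlrp5, a maternal-effect gene, differed by -0.80 ± 0.18, the zona gene Zp3 by 0.59 ± 0.21 and the oocyte growth factor gene Gdf9 by 0.54 ± 0.22 (SE, n = 2 per group, limma adjusted p from 0.193 to 0.425). Of 9 markers of spermatocytes and spermatids 6 were measured, with summed signals of 2.59 to 2.94 on the haploid and 2.09 to 2.57 on the diploid arrays. Ldhc, a germ-cell lactate dehydrogenase, differed by 0.77 ± 0.28, with its other probe at 0.26, the protamine genes Prm1 and Prm2 by 0.28 ± 0.23 and -0.31 ± 0.23, and Tesk2 by 0.06 ± 0.17 (SE, n = 2 per group, limma adjusted p from 0.371 to 0.909). Acrv1, Spaca1 and Tnp2 did not reach the filter. Whether contaminating cells had a part in the members' levels was not tested.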

How the data were processed

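Each of the 4 samples had its own 1-colour array, labelled with Cy3 from 0.2 ug of RNA, per the labels' protocols. Per the file headers, the authors' deposited scanner files come from Agilent Feature Extraction 11.0.1.1 and hold spot intensity on a linear scale. The deposited value table holds linear intensity too, with column medians of 28.3 to 28.4. How it was normalized is not stated in the labels or headers read here. From the scanner files, each processed signal was divided by its array's 75th percentile (526 to 907 intensity units) and put on the log2 scale, without control and outlier spots. Repeated spots were averaged, and no spot was saturated.

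Of 39409 probes, 26043 were named by RefSeq accession (GRCm38.p6). Probes were kept where both arrays of a group read them as well above background, and the brightest probe stood for its gene, leaving 17963 features. The array design names mm9, so positions come only from the promoter table. Arrays correlated at 0.991 and 0.993 within groups and 0.987 to 0.989 across (Pearson, across features, which are not independent replicates). Groups were compared with limma 3.58.1 in R 4.3.3, two-sided. The fit was also run on data simulated from its own variance model, which cannot show whether that model holds for these arrays. The design text speaks of independent experiments. P-values reflect only the spread among these arrays, whose number limits the precision.

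The members and the lists were chosen with earlier results of these data known. From each list the text names any gene that passed, up to 3 with the smallest p, up to 2 with the brightest probes, and, without values, genes below the filter. Other list members are counted only. The alternatives changed the scaling, background correction, source, filter, floor, variance model, replicate block, probe rule and arrays used. Normexp used the median spot signal with an offset of 50 and was followed by quantile normalization, so the effects of these steps cannot be told apart. Normexp without the 14 spots of high local background was added after seeing the data.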

Additional observations from a re-analysis of the deposited data

How the results depend on the processing

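Of the 20 features called by limma, all 20 were among the 91 called with median centring, and 18 among the 425 with a trended and robust prior variance. Quantile normalization called 7, the deposited values of the authors 4, and a filter on all 4 arrays 80 (6 of the 20). None was called with normexp (0 with or without the spots of high local background), with no filter (0) or with values raised to a common floor (0). With 1 array left out there were 0 to 291, none without either diploid replicate, 226 without haploid replicate 1 and 291 without haploid replicate 2. The replicate number used as a block left 2 calls, 0 higher and 2 lower in haploid cells, against 15 higher and 5 lower without it. Samples of a number deviated together only weakly (correlation 0.05 across features), and 2 pairs were too few to settle a pairing. Among members, 1 was called (Tex101) with median centring, with the filter on all 4 arrays and with the trended and robust variance, and 0 to 1 with 1 array left out. Among genes of the lists, 1 was called with median centring (Nanos2) and 6 with the trended and robust variance (Fbln5, Fkbp6, Kit, Nanos2, Nlrp5 and Thbs1), and 0 to 2 with 1 array left out. Nanos2 had reached the filter through its diploid arrays alone. The median of the members ran from -0.23 to 0.12 with 1 array left out. Mael turned to 0.048 with median centring, and with 1 array left out it ran from -0.29 to 0.24, above 0 without haploid replicate 1 (0.24) or diploid replicate 1 (0.10). Tex19.1 turned to -0.028 with quantile normalization, -0.037 with normexp, -0.038 with normexp without the spots of high local background and -0.023 with the value table. Asz1 turned to 0.026 and 0.034 with these forms of normexp, and with 1 array left out it ran from -1.20 to 0.18. The cause of these changes was not tested. With the filter on all 4 arrays Asz1 gave no value. Asz1 alone among the members was not well above background on every array. With normexp the differences of Tex101 and Dazl were also smaller, at 0.92 and -0.40.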
